A study of Mus musculus with 4 samples.

Results

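Mir142 and 9 genes around it on mouse chromosome 11 are described here across 4 arrays of CD4+ thymocytes. The 10 genes were chosen by position, as the microRNA gene that the mutant mice lack and genes at or near its locus (Rnf43, Tspoap1, Mpo, Lpo, Mks1, Mtmr4, Septin4, Trim37 and Rad51c), out of 19938 genes with a probe set of their own. Each of the 10 had 1 probe set that lists a single gene. The arrays held RNA from miR-142-/- Qa2+, miR-142-/- Qa2-, WT Qa2+ and WT Qa2- thymocytes, 1 array for each group. For the miR-142-/- Qa2- array the title and the sorting entry give Qa2- cells while the free-text description gives Qa2+ cells, and the title was followed, so each value of that array rests on it. The mice were of the C57BL/6n strain and 8 weeks old, and cells were pooled within a genotype, from 1 female and 3 male miR-142-/- mice and from 3 female and 2 male WT (miR-142+/+) mice. CD8+ cells were first depleted with magnetic beads, and the remaining cells were sorted as CD4+CD8-CD69-Qa2+ (mature cells close to leaving the thymus) or CD4+CD8-CD69+Qa2- (newly selected cells). The labels call the mutant miR-142-/- and name no other allele, and the extent of the deletion is not given in the sources used here.

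MicroRNAs are short RNAs cut from hairpin precursors that guide Argonaute proteins to messenger RNAs, mostly through the bases of their seed, and lower the output of those messengers. miR-142 is made in nearly all blood cell lineages, where its gene lies beside Tspoap1. Among the neighbours, Rnf43 encodes a membrane ubiquitin ligase that removes Frizzled receptors and so restrains Wnt signalling, and Mpo and Lpo encode secreted haem peroxidases, of which myeloperoxidase is a granule enzyme of neutrophils and their precursors.

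The sequences of the deleted microRNA gene are shown because its probe set is listed for the hairpin precursor, so the mature forms were not read apart. They are RefSeq sequences on GRCm38.p6, written 5′ to 3′. In the hairpin of Mir142 (chr11:87756864-87756927, plus strand, 64 bases) the capitals mark the 2 mature microRNAs, and in each mature sequence they mark the seed, bases 2 to 8.
Mir142 hairpin: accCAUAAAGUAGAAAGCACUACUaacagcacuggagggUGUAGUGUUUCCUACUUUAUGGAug
mmu-miR-142a-5p: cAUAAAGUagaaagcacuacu
mmu-miR-142a-3p: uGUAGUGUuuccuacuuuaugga
mmu-miR-142b: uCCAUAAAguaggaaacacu
The last of these comes from Mir142b, a RefSeq hairpin of 115 bases on the minus strand (chr11:87756841-87756955) that covers all 64 bases of the Mir142 hairpin. Its mature form lies opposite 20 of the 23 bases of miR-142a-3p. The 3 mature sequences have 3 different seeds. No probe set used here lists Mir142b, so it has no value below.

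All values below are RMA log2 expression values as deposited, and differences are in log2 units. Background was set at 5.87, the 95th percentile of the mean levels of 1194 olfactory and vomeronasal receptor genes, and 12591 genes had a mean above it. With 1 array in each group, these differences have no replicate check, and a gene was counted as apart when it differed by 1.5-fold or more. Over receptor genes the genotype difference had a standard deviation of 0.18 in Qa2+ cells, and of 0.15 in Qa2- cells. That is the scatter of dim probe sets, and it says nothing of how mice vary. Sex-linked genes went against the labelled pools of both sexes: Xist read 4.83 and 5.06 in miR-142-/- Qa2+ and Qa2- cells, against 12.14 and 12.67 in WT, and the Y-linked Kdm5d read 9.80 and 9.72 in miR-142-/- against 4.99 and 5.05 in WT. Every genotype difference therefore also compares arrays that differ in sex-linked transcripts. Cd4 read 12.36 to 12.64 and Cd8a 7.25 to 7.53 over the 4 arrays, and the 7 CD4 T cell markers had median genotype differences of -0.05 in Qa2+ and 0.01 in Qa2- cells. In such sorted bulk samples, fewer cells of a type and less RNA per cell cannot be told apart.

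The probe set of Mir142 itself checked the labels, and its signal was lost on both arrays labelled miR-142-/-. Mir142 read 4.88 in miR-142-/- Qa2+ cells, against 9.41 in WT Qa2+ cells. It read 5.29 in miR-142-/- Qa2- cells, against 10.11 in WT Qa2- cells. Both mutant arrays lay below background and both WT arrays far above it. Measured against the background threshold, the Mir142 signal of the mutant was at least 11.6-fold lower among Qa2+ cells. Among Qa2- cells it was at least 19.0-fold lower.

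Within WT, the level of Mir142 was lower in Qa2+ cells, the population sorted as mature. It read 9.41 in Qa2+ and 10.11 in Qa2- cells, a difference of -0.70 or 1.63-fold. The stage differences of receptor genes in WT had a standard deviation of 0.22. In miR-142-/- both stages were below background, so no stage difference is given. Stage markers did not all follow the sort. Cd69 differed by -0.77 in WT and -0.96 in miR-142-/-. Of 6 double-positive thymocyte genes above background, 4 were past 1.5-fold higher in Qa2+ cells of WT, and 0 lower. In miR-142-/- 3 were higher and 0 lower. Of all genes, 6.39% in WT and 6.29% in miR-142-/- were apart in either direction. Rag1 differed by 2.72 in WT and 1.90 in miR-142-/-. The reason was not tested.

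**Figure D1:**
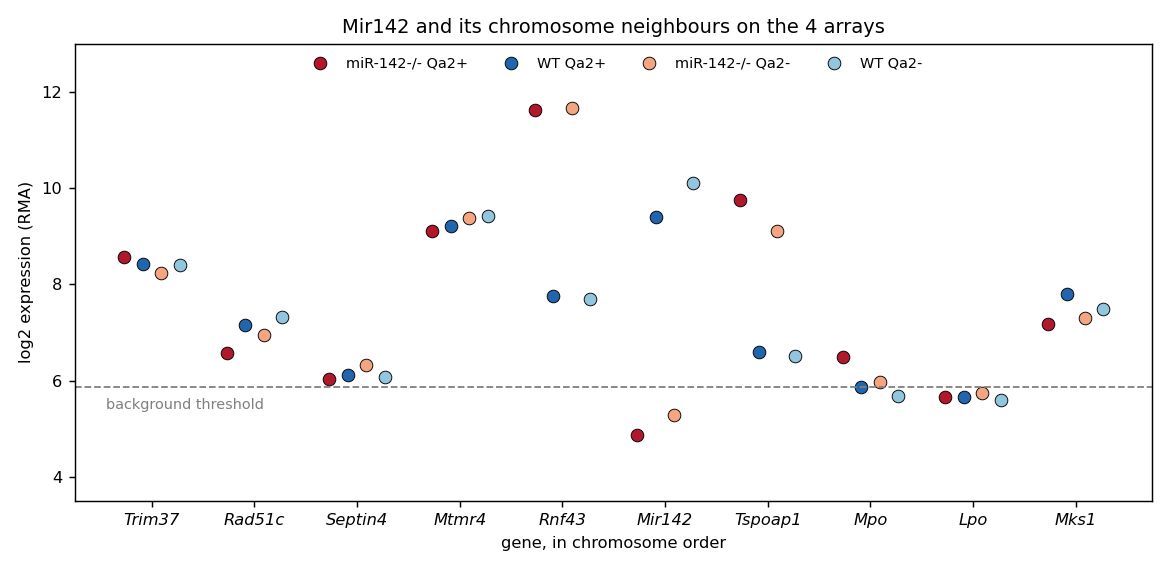
Log2 expression (RMA, vertical axis) of Mir142 and 9 neighbours in chromosome order, with 1 point for each array and the background threshold of 5.87 as a dashed line. Rnf43 and Tspoap1 lie higher on both miR-142-/- arrays and Mir142 lower, while Lpo lies below the threshold on all 4 arrays.

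The genes next to Mir142 on either side had the largest differences of the neighbours. Among genes measured by a probe set of their own, Rnf43 is the nearest on one side of Mir142 and Tspoap1 the nearest on the other, in RefSeq gene order. Rnf43 read 11.63 in miR-142-/- Qa2+ cells and 7.76 in WT Qa2+ cells. It read 11.68 in miR-142-/- Qa2- cells and 7.69 in WT Qa2- cells. It was thus 14.7-fold higher in miR-142-/- Qa2+ and 15.9-fold higher in miR-142-/- Qa2- cells, above background on all 4 arrays. The 2 stages of a genotype differed by -0.04 in miR-142-/- and by 0.07 in WT, far less than the genotypes did. Its difference ranked 5 from the highest of 12591 genes in both populations, behind the Y-linked Eif2s3y, Kdm5d and Uty and the developmental gene Eya1.

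Tspoap1 encodes a large scaffold protein that binds the mitochondrial translocator protein TSPO and, in neurons, RIM proteins of the synapse. It read 9.75 in miR-142-/- Qa2+ cells and 6.58 in WT Qa2+ cells, which is 8.96-fold higher in the mutant. It read 9.11 in miR-142-/- Qa2- cells and 6.51 in WT Qa2- cells, which is 6.09-fold higher. All 4 values were above background, and both mutant values lay above both WT values. Unlike Rnf43, its level also differed by stage in the mutant, where Qa2+ exceeded Qa2- cells by 0.64 (1.56-fold), while the WT stages differed by 0.08. The genotype difference was 0.56 larger in Qa2+ than in Qa2- cells, a gap that was not tested. Tspoap1 ranked 8 from the highest in Qa2+ and 13 in Qa2- cells.

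The promoter windows of Rnf43 are printed because its difference was the largest of the neighbours and RefSeq gives it 2 starts. Each window runs from 250 bases before to 50 bases after a start (GRCm38.p6, plus strand), and capitals mark the dinucleotide CG.
Rnf43 outer start, chr11:87662837-87663136: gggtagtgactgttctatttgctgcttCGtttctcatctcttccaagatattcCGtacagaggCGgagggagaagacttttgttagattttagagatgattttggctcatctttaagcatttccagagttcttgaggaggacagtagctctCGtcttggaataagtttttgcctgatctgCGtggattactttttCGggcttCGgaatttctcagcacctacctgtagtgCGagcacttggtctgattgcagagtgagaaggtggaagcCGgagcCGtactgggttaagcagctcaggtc
Rnf43 inner start, chr11:87699647-87699946: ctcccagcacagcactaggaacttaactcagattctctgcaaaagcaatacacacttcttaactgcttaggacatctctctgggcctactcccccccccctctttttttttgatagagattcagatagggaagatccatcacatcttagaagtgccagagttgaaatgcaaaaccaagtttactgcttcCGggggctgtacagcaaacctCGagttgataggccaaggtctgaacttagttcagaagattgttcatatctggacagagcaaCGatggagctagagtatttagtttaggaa
The outer window holds 10 CG dinucleotides and the inner 3, counted by search of the 2 letters, which read the same on both strands. Over all 32851 windows of the table the median was 7, with quartiles of 3 and 20, and 94.6% held at least 1. Of the other members, the Trim37 window holds 41, Mks1 20, and Mpo and Lpo 2 each. The windows of Rad51c hold 29 and 24, and those of Septin4 hold 1, 11, 13 and 5. The array does not tell which start of Rnf43 the transcript came from.

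Beyond these 3 genes the members differed little between genotypes. Of the 10, 9 had a mean above background and Lpo did not. In Qa2+ cells 5 of the 9 were at least 1.5-fold apart, with Rnf43, Tspoap1 and Mpo higher and Mir142 and Mks1 lower in miR-142-/-, where 9.44% of all genes above background were apart in either direction. In Qa2- cells 3 of the 9 were apart, namely Rnf43, Tspoap1 and Mir142, where the share over all genes was 6.85%. The members and their locus were chosen with earlier results of these arrays known, so these counts are a description.

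Mpo and Lpo, the peroxidase genes on the Tspoap1 side, were at or near background. Mpo read 6.50 in miR-142-/- Qa2+ cells and 5.88 in WT Qa2+ cells, a 1.54-fold difference, which came short of 1.5-fold under both other scalings (0.56 and 0.58 in log2 units). It read 5.97 in miR-142-/- Qa2- cells and 5.68 in WT Qa2- cells, where WT lay below background and the mutant was at least 1.07-fold higher. The highest of the 4 values was therefore that of miR-142-/- Qa2+ cells, and the rest lay within 0.3 of the threshold. Lpo read 5.66 and 5.74 in miR-142-/- Qa2+ and Qa2- cells, against WT values of 5.65 and 5.59 in the same order, below background throughout. The third peroxidase gene of the locus, Epx of eosinophils, read 4.67 to 4.96.

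Markers of granulocyte precursors were read beside Mpo, since the sort could hold such cells. Of 10 such genes, 3 had a mean above background (Elane, Prtn3 and Camp), and none of these 3 was 1.5-fold apart between genotypes. In Qa2+ and Qa2- cells, Prtn3 differed by -0.31 and 0.20, and Camp by -0.21 and 0.16. Among the 7 with a mean below it, Lcn2 read 6.35 in miR-142-/- Qa2+ and 5.45 in WT Qa2+ cells, with 5.97 in miR-142-/- Qa2- and 5.57 in WT Qa2- cells, so that both mutant values were above background. Ngp and Ctsg were below background on all 4 arrays, with differences of 0.63 and 0.36 in Qa2+ cells. The log2 summed level of the 10 genes, 7 of them with a mean below background, was 9.13 in miR-142-/- Qa2+ cells and 8.97 in WT Qa2+ cells. It was 8.88 in miR-142-/- Qa2- cells and 8.80 in WT Qa2- cells. Elane, which encodes neutrophil elastase, read 6.57 in miR-142-/- Qa2+ and 6.55 in WT Qa2+ cells. It read 5.85 in miR-142-/- Qa2- and 6.16 in WT Qa2- cells. Of 10 myeloid genes 4 were above background, and Lyz2, the lysozyme gene of macrophages and neutrophils, differed by -0.81 in Qa2+ cells (6.67 in miR-142-/- and 7.48 in WT). The part of such cells in the Mpo values was not tested.

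Mks1 encodes a protein of the ciliary transition zone and lies beyond Lpo. It read 7.18 in miR-142-/- Qa2+ cells and 7.80 in WT Qa2+ cells, 1.54-fold lower in the mutant. It read 7.30 in miR-142-/- Qa2- cells and 7.49 in WT Qa2- cells, a difference of -0.19. The WT Qa2+ array was the highest of the 4, and the other 3 lay within 0.31 of each other. Other transition zone genes did not share this difference in Qa2+ cells: of 11 above background, Mks1 was the one that was 1.5-fold lower there, while Tmem67 and Tctn1 were higher in the mutant by 0.63 and 0.74. In Qa2- cells Tctn1 was higher by 0.70 and Tmem231 by 0.76. The list medians were 0.13 in both populations.

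On the Rnf43 side, Mtmr4, Septin4 and Trim37 were less than 1.5-fold apart in both populations. Mtmr4, a phosphoinositide phosphatase of endosomes, read 9.12 in miR-142-/- Qa2+ cells and 9.21 in WT Qa2+ cells, with 9.39 in miR-142-/- Qa2- and 9.42 in WT Qa2- cells. Its 4 values spanned 0.30. Septin4, a filament-forming GTPase, read 6.03 in miR-142-/- Qa2+ cells and 6.12 in WT Qa2+ cells, with 6.32 in miR-142-/- Qa2- and 6.07 in WT Qa2- cells, all close to background. Trim37, a ubiquitin ligase that limits assembly of centrosomes, read 8.57 in miR-142-/- Qa2+ cells and 8.43 in WT Qa2+ cells, with 8.24 in miR-142-/- Qa2- and 8.41 in WT Qa2- cells. For Septin4 and Trim37 the genotype difference had opposite signs in the 2 populations, by amounts of at most 0.26.

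Rad51c, a gene needed for repair by homologous recombination, was lower in miR-142-/- in both populations. As deposited it was short of 1.5-fold, and in Qa2+ cells it passed 1.5-fold under both other scalings (-0.64 with arrays centred and -0.63 after quantile normalization). It read 6.57 in miR-142-/- Qa2+ cells and 7.15 in WT Qa2+ cells, a difference of -0.58. It read 6.94 in miR-142-/- Qa2- cells and 7.33 in WT Qa2- cells, a difference of -0.38. Both mutant values lay below both WT values. Genes of dividing cells were also lower by genotype, in a list chosen with earlier results of these data known. All 6 proliferation genes were past 1.5-fold lower in the mutant, whichever the population. Their medians were -2.51 for Qa2+ and -2.18 for Qa2- cells, where 4.88% and 3.74% of all genes were lower. By stage the list median went the other way from Rad51c. Its Qa2+ minus Qa2- difference was 0.53 in miR-142-/- and 0.76 in WT, against -0.38 and -0.18 for Rad51c. Mki67 read 8.16 in miR-142-/- Qa2+ and 10.57 in WT Qa2+ cells. Whether fewer dividing cells account for the Rad51c values was not tested.

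The genotype difference was then followed along the chromosome. Of the 25 measured genes on each side of Mir142, 41 of 50 had a mean above background, and their median differences were -0.02 in Qa2+ and -0.01 in Qa2- cells, next to 0.00 for all genes in each. In Qa2+ cells 4 were past 1.5-fold higher and 4 past 1.5-fold lower in the mutant, or 19.5% against 9.44% of all genes. In Qa2- cells 3 were higher and 3 lower, or 14.6% against 6.85%. Without the members among them, 4 of 33 (12.1%) were apart in each population.

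Among genes with a probe set of their own, the next ones outward did not share the large differences of Rnf43 and Tspoap1. Those below background, Hsf5 and Lpo, cannot show a difference. Directly beyond Rnf43, Hsf5, a heat shock factor gene, read 5.23 in miR-142-/- Qa2+ and 5.21 in WT Qa2+ cells, with 5.53 in miR-142-/- Qa2- and 5.44 in WT Qa2- cells, below background, and Mtmr4 follows it. Directly beyond Tspoap1 come Mpo, near background and higher in miR-142-/- by 0.62 in Qa2+ and 0.29 in Qa2- cells, and Lpo, below background. With Rnf43 and Tspoap1 set aside, 3 of 39 genes above background (7.69%) were apart the same way in both populations, against 4.9% of all genes. Dhx40, an RNA helicase family gene 15 places from Mir142, read 10.27 in miR-142-/- Qa2+ and 9.31 in WT Qa2+ cells, a difference of 0.97. Its Qa2- values were 9.75 in miR-142-/- and 9.14 in WT, 0.61 apart. Prr11, a gene of cell cycle progression 11 places away, read 6.08 in miR-142-/- Qa2+ and 8.06 in WT Qa2+ cells, a difference of -1.98. Its Qa2- values were 6.67 in miR-142-/- and 7.65 in WT, a difference of -0.98. Brip1, a DNA helicase gene of repair at 23 places, differed by -0.72 in Qa2+ cells, and by -0.63 in Qa2- cells. Dhx40, Prr11 and Brip1 are all on the Rnf43 side.

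The genes past 1.5-fold in a single population, named after their values were seen, were Mpo, Mks1 and Trim25 in Qa2+ and Gdpd1 in Qa2- cells. Trim25, a ubiquitin ligase of antiviral sensing, differed by -0.65 in Qa2+ and -0.24 in Qa2- cells. Gdpd1, a phosphodiesterase gene, differed by -0.65 in Qa2- cells and by -0.49 in Qa2+ cells, where the mutant value of 5.76 lay below background. Supt4a lies between Rnf43 and Mir142 in RefSeq gene order but shares its probe sets with the paralog Supt4b, so it is named for no value here. Those shared probe sets were higher in the mutant in both populations, as given under the flagged results.

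**Figure D2:**
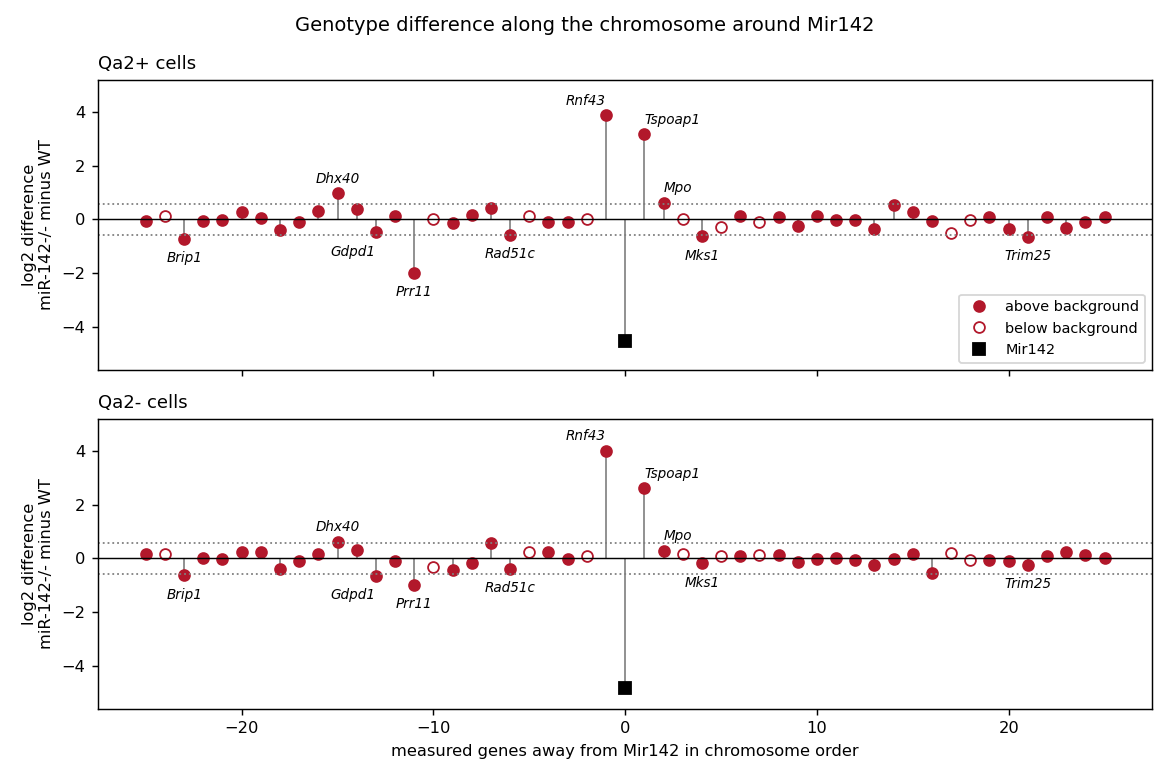
Log2 difference, miR-142-/- minus WT (vertical axis), of the 25 measured genes on each side of Mir142 against their place in chromosome order (horizontal axis), in Qa2+ and Qa2- cells. Dotted lines mark 1.5-fold and open points genes below background. Rnf43 and Tspoap1 stand up on either side of Mir142, and most other genes lie between the dotted lines.

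The members were also set beside all genes of both populations. Rnf43 differed by 3.87 in Qa2+ and 3.99 in Qa2- cells, and Tspoap1 by 3.16 in Qa2+ and 2.61 in Qa2- cells. For Mir142 the sizes are bounds, as given above, since the mutant values are below background. The 2 populations of a genotype came from the same pool of mice, so their likeness does not measure the spread between mice.

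**Figure D3:**
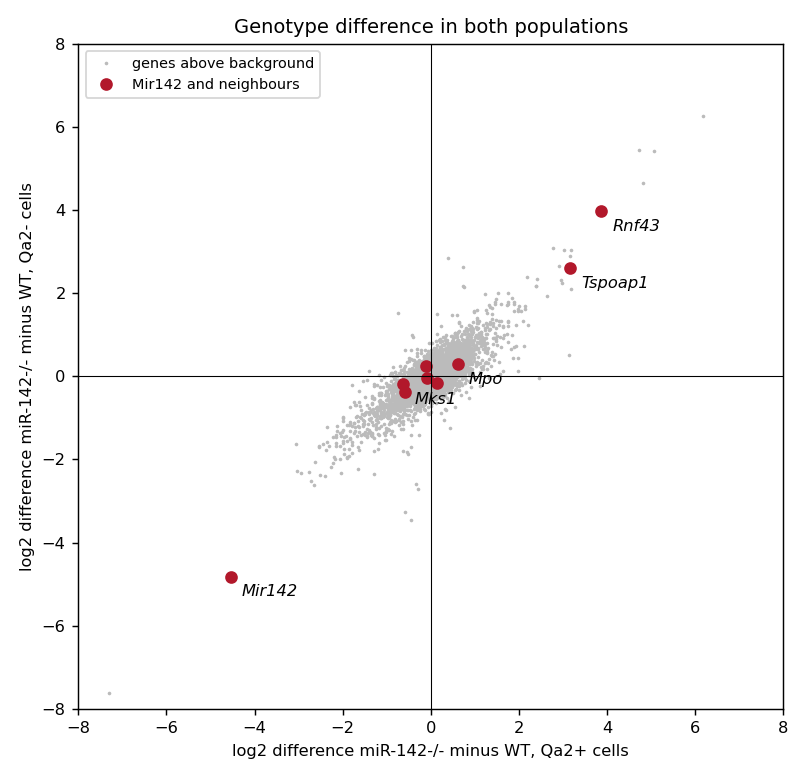
Log2 difference, miR-142-/- minus WT, in Qa2+ cells (horizontal axis) and Qa2- cells (vertical axis) for the 12591 genes above background (grey) and the 9 locus genes among them (red). The Mir142 point is plotted at its measured values, with the mutant below background. Mir142, Rnf43 and Tspoap1 lie near the ends of the diagonal and the other 6 lie in the central cloud.

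Genes whose 4 values were most like those of Mir142, Rnf43 and Tspoap1 were found by Euclidean distance between profiles centred on their mean, over 4 arrays and 12831 genes above background on at least 2 of them. None came close to the measured Mir142 profile: the nearest 5 were Nusap1, Ctla4, Bub1, Ccna2 and Top2a, at distances of 2.35 to 2.52. Of these, Ctla4 encodes an inhibitory receptor of T cells and the other 4 act in dividing cells. Both mutant values of Mir142 were below background, so the distances from it rest in part on readings without signal. Nearest to Rnf43 were the Y-linked Kdm5d (0.82), the transcription factor gene Klf12 (0.89), Tmem176a (0.93), Tmem176b (0.98) and the semaphorin receptor gene Nrp2 (1.02). Both WT values of Kdm5d were below background, so its distance also rests in part on readings without signal. Nearest to Tspoap1 were Sh3bgrl2 (0.33), Hoxa5 (0.36), Tmem176a (0.66), Klf9 (0.68) and Nrp2 (0.68). Tmem176a and Nrp2 were thus among the 5 nearest of both neighbours, while Rnf43 and Tspoap1 were 1.15 apart from each other.

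Genes that act with RNF43 at the cell surface were read as a list of Wnt receptors, R-spondins and their partners. Of 23 such genes, 12 were above background, and 2 were past 1.5-fold higher in the mutant in each population, with 0 lower, where 4.56% of all genes were higher in Qa2+ and 3.11% in Qa2- cells. Besides Rnf43 these were Fzd6, a Frizzled receptor gene, in Qa2+ cells (6.65 against 5.77 in WT, which is below background) and Znrf3, the paralog of Rnf43, in Qa2- cells (10.22 against 9.54 in WT). Znrf3 differed by 0.48 in Qa2+ cells. List medians were 0.13 and 0.08. Of 16 genes of the signalling core, Ctnnb1, which encodes beta-catenin, was higher by 0.89 in Qa2+ cells, and by 0.63 in Qa2- cells. Tcf7l2 was higher by 0.71 in Qa2+ cells and differed by 0.29 in Qa2- cells. Axin2, a widely used target of the pathway, read 7.84 in miR-142-/- Qa2+ and 7.82 in WT Qa2+ cells, with 8.24 in miR-142-/- Qa2- and 7.90 in WT Qa2- cells.

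The partner of the Tspoap1 product was not higher with it. Tspo read 9.17 in miR-142-/- Qa2+ and 9.49 in WT Qa2+ cells, with 8.36 in miR-142-/- Qa2- and 8.82 in WT Qa2- cells, and the RIM-binding relatives Rimbp2 and Rimbp3 were below background.

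MicroRNA machinery differed little. Of 14 genes above background, among them Drosha, Dicer1 and the Argonaute genes Ago1, Ago2 and Ago3, 0 were 1.5-fold apart in either population. The largest mean absolute difference was that of Ago3 (0.42 in Qa2+ and 0.24 in Qa2- cells). Ago4 was below background. The medians were 0.07 and 0.03. Of 299 other microRNA genes with a probe set, 107 were above background, with medians of 0.10 in Qa2+ and 0.07 in Qa2- cells. They were drawn by symbol, so the host gene transcripts Mir17hg and Mir99ahg are counted among the 107. In Qa2+ cells 9 were past 1.5-fold higher and 0 past 1.5-fold lower in the mutant, and in Qa2- cells 2 were higher and 2 lower. The shares over all genes were 4.56% (higher) and 4.88% (lower) for Qa2+ cells, with 3.11% and 3.74% for Qa2- cells. Past 1.5-fold in both were Mirlet7e (8.15 against 6.66 in WT among Qa2+ cells, 7.22 against 6.46 in WT among Qa2- cells) and Mir568 (differences of 0.99 in Qa2+ and 0.71 in Qa2- cells). Mir301, the microRNA gene nearest to Mir142 in gene order among those measured, read 4.06 to 4.59, below background.

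Lists around the roles of the remaining members, and markers of other cells, are given against the 9.44% of all genes that were 1.5-fold apart in Qa2+ cells and the 6.85% in Qa2- cells. Of 7 centriole assembly genes, Stil and Plk4, both needed for centriole duplication, differed by -2.20 and -1.07 in Qa2+ cells, and by -1.93 and -0.89 in Qa2- cells, with Stil below background in the mutant. Of 8 septin genes 0 were 1.5-fold apart, the largest mean difference being that of Septin2 (0.24 and 0.35). Of 12 myotubularin genes, Sbf2 was higher by 1.19 in Qa2+ cells, and by 0.75 in Qa2- cells, and Mtmr10 differed by 0.30 in Qa2+ cells and 0.76 in Qa2- cells. Of markers of other cells, Cd79b was the 1 of 5 measured B cell genes above background, at -0.45 in Qa2+ cells and -0.48 in Qa2- cells. Of 6 double-positive thymocyte genes, 1 was higher and 2 lower in Qa2+ cells, and 1 higher and 1 lower in Qa2- cells. The lower ones were Cd8b1 in both populations (-1.23 in Qa2+ cells, -0.73 in Qa2- cells) and Rag1 in Qa2+ cells (-0.61), and the higher ones Dntt in Qa2+ cells (1.08) and Arpp21 in Qa2- cells (1.48). Of 5 regulatory T cell genes, Ctla4 and Foxp3 were lower, with Ctla4 at -2.65 in Qa2+ and -2.61 in Qa2- cells and Foxp3 at -1.66 in Qa2+ and -1.19 in Qa2- cells. Of 3 stroma genes, Krt8 was higher by 0.93 in Qa2+ cells and Epcam differed by -0.60 in Qa2- cells. The part of such cells in the values of the locus genes was not tested.

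**Figure D4:**
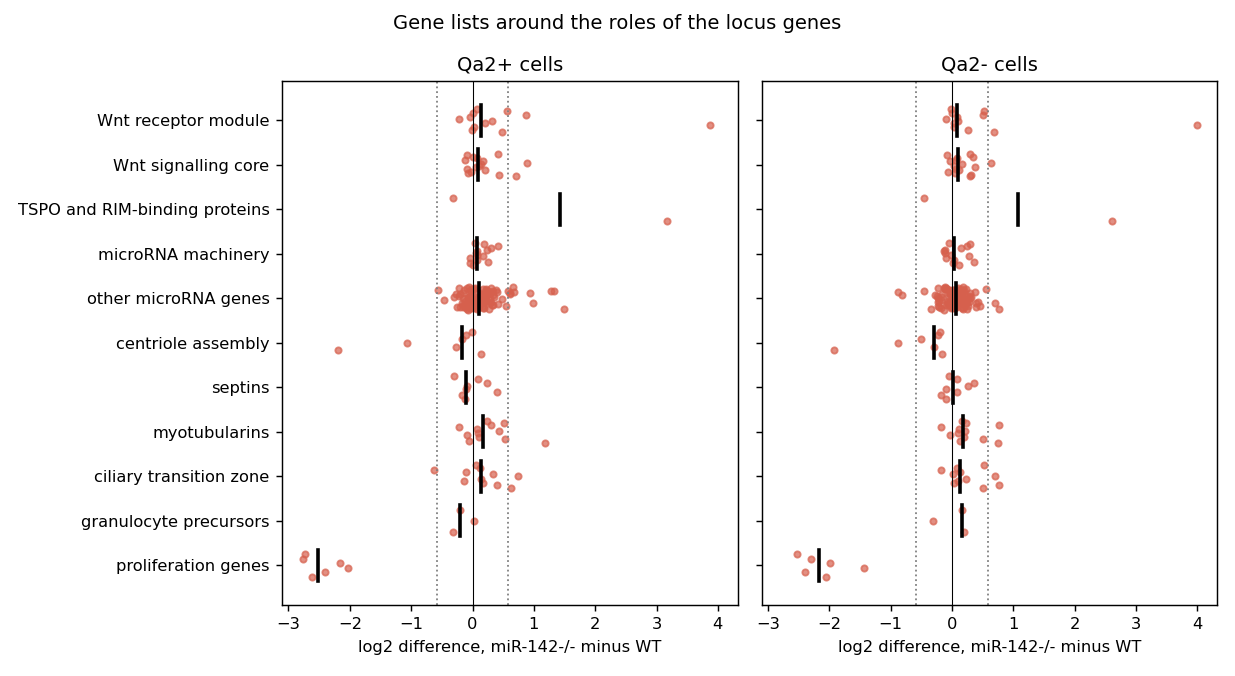
Log2 difference, miR-142-/- minus WT (horizontal axis), of the genes above background in 11 gene lists, in Qa2+ cells (left) and Qa2- cells (right), with 1 point for each gene, a black bar at the list median and dotted lines at 1.5-fold. The 6 proliferation genes lie to the left of the lines in both panels, and Rnf43 and Tspoap1 stand at the far right of their lists.

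Stage differences of the members were small. In miR-142-/- 1 of 9, Tspoap1, was at least 1.5-fold apart between Qa2+ and Qa2- cells, against 6.29% of all genes. In WT 1 of 9, Mir142, was apart, against 6.39% of all genes. Averaged over genotypes in limma with the pool as a block, 13.1% of 12591 genes passed an adjusted p of 0.05. Of the 8 members tested, 0 did so. At an unadjusted p under 0.05 in limma were 4 of the 8, where 3732 of all 12591 genes were too. Mpo came nearest, at 0.36 ± 0.11 higher in Qa2+ cells (SE, 2 pairs, limma, Benjamini-Hochberg adjusted p = 0.077), with 0.53 in miR-142-/- and 0.20 in WT. Tspoap1 differed by 0.36 ± 0.14 (limma, adjusted p = 0.13), Rad51c by -0.28 ± 0.10 (adjusted p = 0.12) and Rnf43 by 0.01 ± 0.10 (adjusted p = 0.95). The fit assumes the same stage difference in both genotypes, so Mir142 was not read from it. For Tspoap1 the stage differences were 0.64 in miR-142-/- and 0.08 in WT, so 0.36 describes neither genotype. Mpo and Tspoap1 passed when each array was centred on its median (limma, adjusted p = 0.025 and 0.046). The fit has 1 residual degree of freedom, so its errors rest mostly on the spread pooled over all genes and not on the spread between mice. On simulated data the same fit called more unchanged genes than its threshold allows. Its adjusted p-values here are therefore likely too small, and the passes of Mpo and Tspoap1 after centring are weak.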

How the data were processed

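RNA from 4 sorted pools was hybridised to 1 Affymetrix Gene 1.0 ST array each. The deposited values are log2 expression values of 35557 probe sets. Per the submitters' processing notes they were made with RMA and Partek, without stated settings. RMA equalises arrays, which hides a shift shared by all genes, and compresses differences of dim probe sets. Array medians were 6.61 to 6.74, and precision is limited by how few arrays there are.

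Of the probe sets, 21789 listed 1 gene, 1621 several and 12147 none, and 21698 of the first matched a current gene (GRCm38.p6) by Entrez ID. Each gene took its probe set with the highest mean. Gene order came from that assembly, and promoter windows were found for 7 of the 10 genes, not for Mir142, Mtmr4 and Tspoap1. Members and lists, the proliferation list most recently, were chosen with earlier results of these data known. Named genes were the 10 members, the 3 nearest genes on each side, neighbours and microRNA genes 1.5-fold apart in both populations, list members 1.5-fold apart in either or else the one with the largest mean difference, the 5 nearest profiles and genes that check the labels. A list of repair genes is not reported here. The stage difference was fitted with limma 3.58.1 (R 4.3.3) on all genes above background, two-sided, with Benjamini-Hochberg adjustment, and the fit was tested on simulated data. There it found the changed genes but also called more unchanged genes than an adjusted p of 0.05 allows, for a reason that was not tested. Its count of calls is therefore likely too high. Alternatives were 2 scalings, the mean of probe sets, other background filters, 15 or 40 genes on each side, no block and an intensity trend.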

Additional observations from a re-analysis of the deposited data

Results flagged for a closer look

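A pair of probe sets outside the comparisons carried a signal that differed between genotypes. Both list Supt4a, the subunit gene of a transcription elongation factor that lies between Rnf43 and Mir142, together with its paralog Supt4b, so neither gene can be named for it. Probe set 10380129 read 12.29 in miR-142-/- Qa2+ cells and 11.03 in WT Qa2+ cells, a log2 difference of 1.26. It read 12.16 in miR-142-/- Qa2- cells and 11.07 in WT Qa2- cells, a difference of 1.09. Probe set 10368575 read 11.66 and 11.69 in miR-142-/- Qa2+ and Qa2- cells and 10.44 and 10.68 in WT Qa2+ and Qa2- cells, differences of 1.22 and 1.01. These probe sets were looked at after the values of the locus were seen.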

How the results depend on the processing

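All 100 recomputed genotype differences of the 10 genes moved by less than the scatter of receptor genes and kept their direction where 1.5-fold apart. Only those under the 2 scalings could move at all. Each of the 10 genes has 1 probe set, and a background filter alters no value, so the rest were unchanged by construction. The counts of members apart by genotype were 4 to 5 in Qa2+ and 3 in Qa2- cells under every scaling, probe set rule and filter tried, but not always of the same members. In Qa2+ cells, with arrays centred or quantile normalized again, Mpo (0.56 and 0.58) came short of 1.5-fold and Rad51c (-0.64 and -0.63) passed it, which made 2 higher and 3 lower in place of 3 and 2. With arrays centred on their medians, or quantile normalized again, 2 members were apart by stage in miR-142-/- in place of 1, and the limma stage fit called 2 and 1 of the members in place of 0. Those scalings also moved the share of stage calls that were higher in Qa2+ cells to 59.9% and 56.1%, against 36.3% as deposited. Without the pool as a block, limma called 0 genes (1544 at an unadjusted p under 0.05) in place of 1651. Without the members, 4 neighbours in place of 8 were apart in Qa2+ cells, by construction, an alternative chosen after seeing the data. The causes of the other changes were not tested. The labels give no replicate numbers, so the pool was the one pairing used, and no replicate was left out, since each group had 1 array. Signals near background, such as those of Mpo, Lpo and Septin4, limit what small differences can show.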
